A study of Mus musculus with 12 samples.

Results

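The D-type cyclins and the CDK inhibitors are the genes that set the pace of the G1 phase of the cell cycle. They were taken here as the rows of the RNA-seq tables whose gene symbol was Ccnd1, Ccnd2, Ccnd3, Cdkn1a, Cdkn1b, Cdkn1c, Cdkn2a, Cdkn2b, Cdkn2c or Cdkn2d. Each symbol had 1 row, which gave 10 genes of the 52636 in the tables. D-type cyclins bind the kinases CDK4 and CDK6, and the resulting complexes phosphorylate the retinoblastoma protein RB1, which releases E2F transcription factors and lets the cell enter S phase. Inhibitors of the INK4 family (Cdkn2a to Cdkn2d) bind CDK4 and CDK6 and keep cyclins away from them. Those of the Cip/Kip family (Cdkn1a to Cdkn1c) bind cyclin-CDK complexes and block above all those of CDK2, while they can also help D-type cyclins to assemble with their kinases. KLF4, a zinc finger transcription factor that binds CACCC and GC-rich sequences, is known as an activator of Cdkn1a.

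Bulk RNA-seq was made from 12 libraries in 4 groups of 3, from SMCs and lung PDGFR-β+ cells of the mouse, each treated with siKlf4, a small interfering RNA against Klf4, or with Scr, a scrambled control RNA. The SMCs were purchased primary cells of the C57BL/6 strain that the titles call airway and the source field calls tracheal, with no age given. The PDGFR-β+ cells were labelled as lung cells of C57BL/6 mice, 12 weeks of age, wild type with Scr and Klf4 knockdown with siKlf4. The study's methods describe them as Zs+ cells sorted from tamoxifen-induced Pdgfrb-CreERT2, ROSA26R(Zs/+) mice, in which cells that express Pdgfrb at induction carry the reporter. The methods give 50 nM for the siRNA against Klf4, and 6 h with it or with Scr, followed by 72 h of culture. They name alternative transfection reagents and siRNA suppliers without saying which cells received which. The methods speak of independent experiments, and nothing says whether the libraries of a group came from separate animals, so the p-values measure the spread between these libraries. In SMCs, 1 library of each treatment has no replicate number in its column name. These are given first in each list of SMC values below and are called the unnumbered libraries, followed by replicates 2 and 3, while values for PDGFR-β+ cells are in the order of replicates 1 to 3.

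Levels are in TPM, a measure of transcript abundance that divides the reads of a gene by its length and scales every library to the same total, so it keeps no sequencing depth. Each library had from 20590 to 21780 genes above 0 TPM. Klf4 itself was at 89.6, 96.3 and 95.03 TPM with Scr against 26.5, 16.3 and 18.8 TPM with siKlf4 in SMCs. In PDGFR-β+ cells it was at 144, 146 and 134 TPM with Scr against 12.3, 13.8 and 12.8 TPM with siKlf4. The knockdown left 21.9% of the Scr mean in SMCs and 9.16% in PDGFR-β+ cells, and it was less deep in SMCs (difference of the log2 fold changes 1.19, limma adjusted p = 6.9e-04). Both labelled cell types expressed contractile and mesenchymal markers, at different levels. Pdgfrb was at 304 TPM or more in the PDGFR-β+ libraries and at 216 TPM or less in the SMC libraries. The contractile gene Acta2 was also higher in the PDGFR-β+ libraries, at 3454 TPM or more against 3072 TPM or less, while Pdgfra and Dcn were higher with Scr in SMCs. Other contractile genes were not all higher in PDGFR-β+ cells. With Scr, Myh11 was lower in SMCs, at 15.23 to 15.99 TPM against 18.8 to 23.0 TPM in PDGFR-β+ cells. Tagln, Cnn1 and Lmod1 were likewise lower in Scr-treated SMCs, without overlap. Des was higher in Scr-treated SMCs, at 2.39 to 2.99 TPM against 1.56 to 2.37 TPM, and Smtn and Myocd overlapped. The order of Myh11 was the opposite after siKlf4. With siKlf4, Myh11 was at 40.7 to 61.9 TPM in SMCs against 31.2 to 36.7 TPM in PDGFR-β+ cells. Tagln was at 661 to 778 TPM against 988.5 to 1126 TPM in the same groups. Myocd, which encodes a coactivator of the contractile genes, was at 0.213 TPM or less in all 12 libraries. Of 8 contractile markers 7 were tested, of which 6 rose and 0 fell in SMCs, while 3 rose and 3 fell in PDGFR-β+ cells. Their sum, mostly Acta2 and Tagln, went from between 1495 and 2284 TPM to between 3411 and 4174 TPM in SMCs and from between 5551 and 6408 TPM to between 4708 and 5003 TPM in PDGFR-β+ cells, where Myh11 was at 18.8 to 23.0 TPM with Scr and 31.2 to 36.7 TPM with siKlf4. Of the mesenchymal markers, 3 fell and 0 rose in each cell type, and their sum went from between 3442 and 3565 TPM to between 2542 and 2646 TPM in SMCs and from between 2858 and 3545 TPM to between 2071 and 2898 TPM in PDGFR-β+ cells. Of 6 macrophage and leukocyte markers, Ptprc, Adgre1 and Itgam were at 0.266 TPM or less throughout, but Lyz2 was at 17.3 to 20.3 TPM in Scr-treated PDGFR-β+ cells and 9.49 to 13.6 TPM after siKlf4, with 2 markers of the list falling there, and Cd68 reached 9.62 TPM. Of 6 endothelial markers, Pecam1, Cdh5, Vwf and Cldn5 were at 0.463 TPM or less. Kdr was at 13.7 to 17.1 TPM in Scr-treated PDGFR-β+ cells and 11.8 to 12.9 TPM after siKlf4. Tek was at 1.17 to 1.42 TPM with Scr and 2.06 to 3.14 TPM with siKlf4 in these cells. Of the 2 endothelial markers tested in PDGFR-β+ cells, 1 rose and 0 fell. The endothelial list summed to between 1.34 and 2.65 TPM with Scr and between 3.54 and 4.02 TPM with siKlf4 in SMCs. All 6 epithelial markers were at 0.894 TPM or less. The part of these shifts in the results below was not tested. In bulk libraries, fewer cells of a type and less RNA per cell cannot be told apart.

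Before any knockdown effect, the levels of the 10 genes spanned a wide range in Scr-treated cells. In SMCs Cdkn1a had the highest mean, at 557 ± 31.0 TPM (SD, n = 3), followed by Ccnd2 at 334 ± 8.71, Ccnd1 at 301 ± 39.4, Cdkn2a at 213 ± 48.9, Cdkn2b at 130 ± 11.2, Cdkn1c at 95.4 ± 21.3, Ccnd3 at 70.8 ± 20.5, Cdkn1b at 55.7 ± 9.92, Cdkn2c at 38.3 ± 6.49 and Cdkn2d at 28.7 ± 3.34 TPM. Neighbours in this order overlapped in their libraries from Ccnd2 to Ccnd1, from Ccnd1 to Cdkn2a, from Cdkn1c to Ccnd3 and from Ccnd3 to Cdkn1b. In PDGFR-β+ cells Ccnd2 led at 787 ± 37.4 TPM (SD, n = 3), followed by Cdkn1a at 663 ± 41.3, Ccnd1 at 558 ± 9.002, Cdkn2a at 119 ± 11.5, Cdkn2b at 62.4 ± 1.09, Ccnd3 at 51.4 ± 6.38, Cdkn1b at 29.9 ± 3.77, Cdkn2c at 19.8 ± 0.731, Cdkn2d at 19.2 ± 3.34 and Cdkn1c at 2.20 ± 0.404 TPM. Only Cdkn2c and Cdkn2d overlapped as neighbours there.

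The cell types were set side by side without a test, since their tables were made separately and cell type, source, culture and table cannot be told apart. For 9 of the 10 genes the Scr libraries of the cell types did not overlap, as for 58.9% of all genes compared. Ccnd1, Ccnd2 and Cdkn1a were higher in PDGFR-β+ cells, by 1.86-fold, 2.36-fold and 1.19-fold in the means. The other 6 were inhibitors that were higher in SMCs, as were 30.7% of all genes. Their ratios of means were 1.86-fold for Cdkn1b, 1.79-fold for Cdkn2a, 2.08-fold for Cdkn2b, 1.93-fold for Cdkn2c, 1.496-fold for Cdkn2d and 43.4-fold for Cdkn1c. Ccnd3 overlapped between the cell types. The values of every library are shown in the plot of the 10 genes by group.

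**Figure D1:**
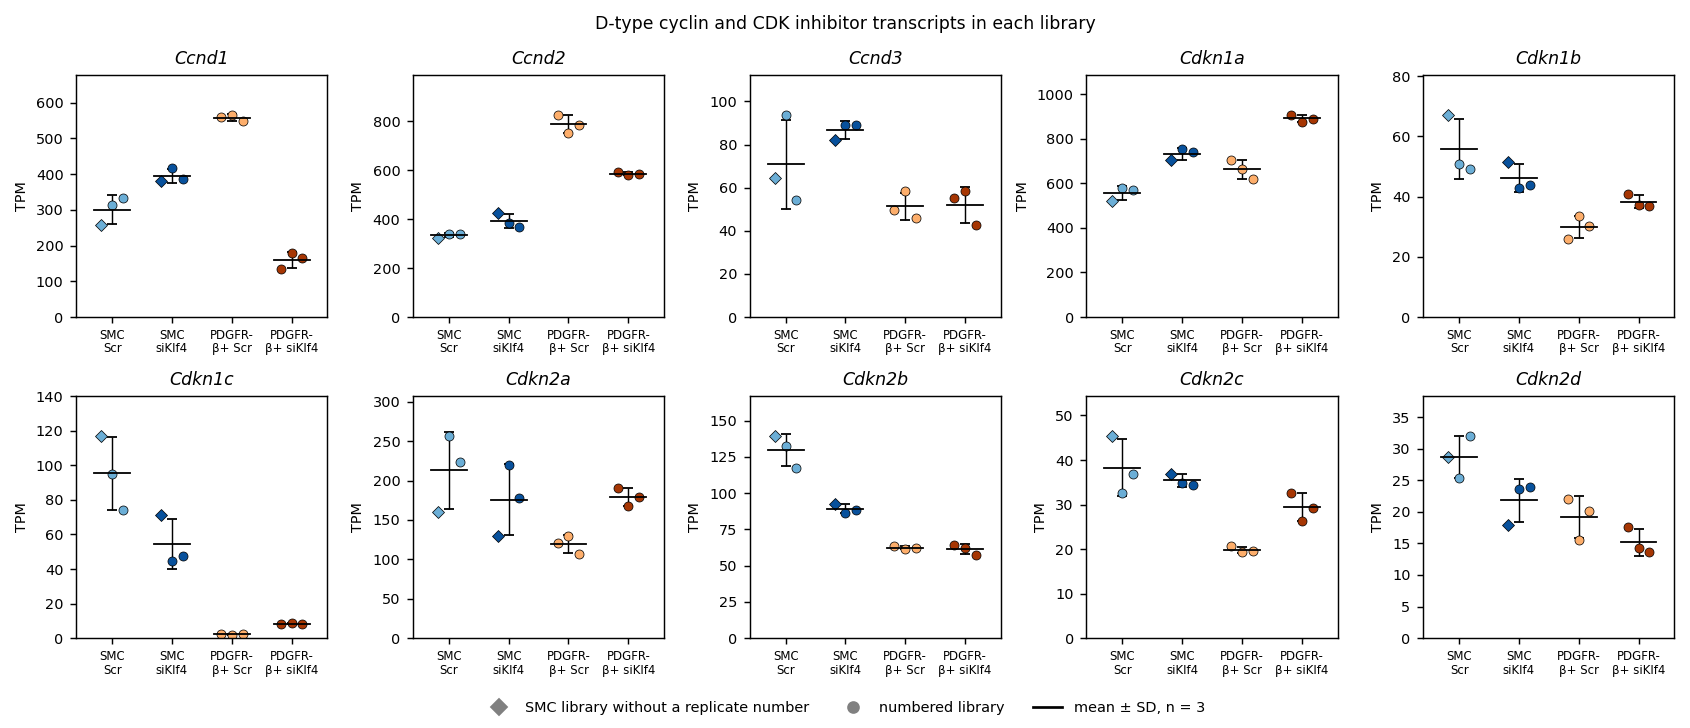
TPM (linear axis from 0) of the 10 genes in each of the 12 libraries, with 1 panel per gene. Points are libraries, diamonds the unnumbered SMC libraries, and lines the mean ± SD (n = 3). Ccnd1 was between 548 and 566 TPM in Scr-treated PDGFR-β+ cells and between 134 and 180 TPM after siKlf4, and the siKlf4 libraries of Cdkn1a lie above its Scr libraries in both cell types.

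Which of these genes responded to loss of Klf4 was tested in each cell type with limma on log2(TPM + 1), after genes that averaged under 1 TPM across the 6 libraries had been left out. All 10 genes passed this filter in both cell types. P-values were adjusted by the Benjamini-Hochberg method over all genes tested, with a threshold of 0.05. The added 1 makes the fold changes of low genes smaller than they would be on TPM itself. In SMCs 4 of the 10 genes passed, against 28.5% of the 13709 genes tested. Cdkn1a and Ccnd1 rose, as did 15.6% of all genes, and Cdkn1c and Cdkn2b fell, as did 12.9%. In PDGFR-β+ cells 7 of the 10 passed, against 40.6% of 13694 genes, where Cdkn1a, Cdkn1b, Cdkn1c, Cdkn2a and Cdkn2c rose (25.3% of all genes) and Ccnd1 and Ccnd2 fell (15.3%). The effect itself differed between the cell types for 7 of the 10 genes by the interaction term over the 12 libraries, against 33.0% of 13032 genes. These were all but Ccnd3, Cdkn1a and Cdkn2d. Cell type, source, culture, depth of the knockdown and any difference in transfection reagent or siRNA cannot be told apart in this comparison. The difference, SMC minus PDGFR-β+, was above 0 for Ccnd1 and Ccnd2 (14.5% of all genes) and below 0 for the 5 inhibitors (18.5%). A two-sided exact permutation test of 3 libraries against 3 cannot give a p below 0.1, and the groups did not overlap for 6 of the 10 genes in SMCs (47.1% of all genes tested) and 7 in PDGFR-β+ cells (53.8%).

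**Figure D2:**
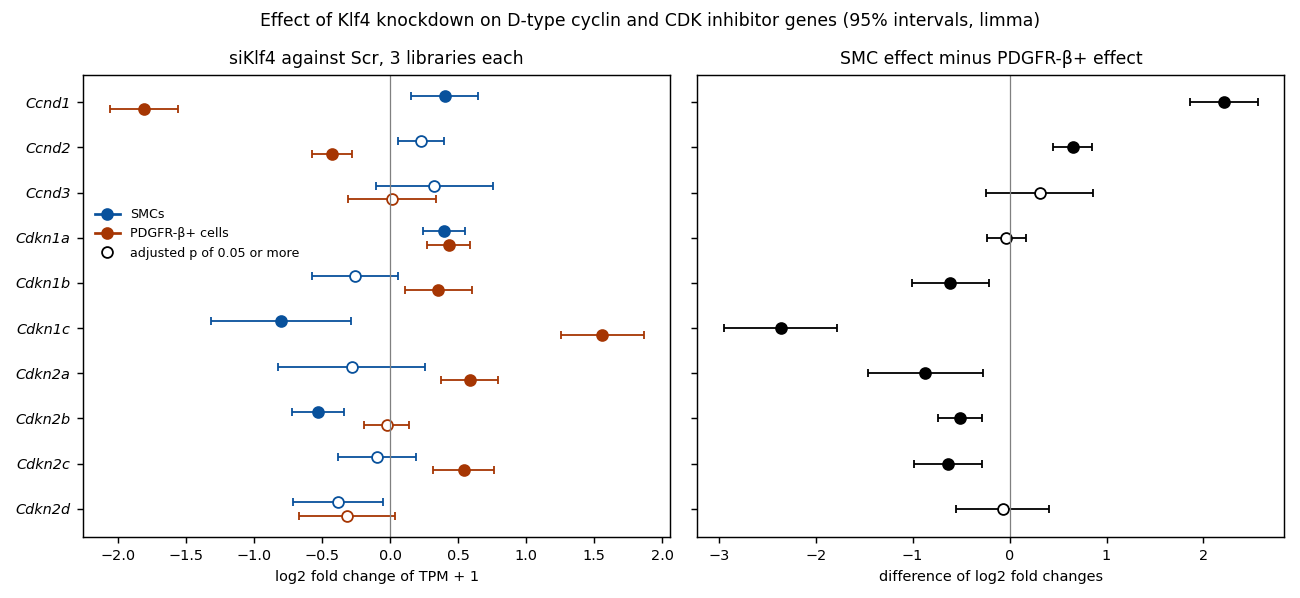
Effect of siKlf4 on the 10 genes. The left panel gives the log2 fold change of TPM + 1 against Scr in SMCs (blue) and PDGFR-β+ cells (brown), and the right panel the difference between them (SMC minus PDGFR-β+), with 95% intervals from limma and open symbols for an adjusted p of 0.05 or more. Ccnd1 and Cdkn1c lie on opposite sides of 0 in the cell types, and the points of Cdkn1a lie at 0.40 and 0.43.

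Cdkn1a (ENSMUSG00000023067.13) encodes p21, the p53-inducible Cip/Kip inhibitor, and lies on the plus strand of chromosome 17 of mm10, between 29090976 and 29100727. In SMCs it measured 522, 579 and 571 TPM with Scr against 704, 754 and 740 TPM with siKlf4. In PDGFR-β+ cells the Scr libraries measured 703, 665 and 621 TPM and the siKlf4 libraries 907, 877 and 891 TPM. The siKlf4 libraries were thus all above the Scr libraries in both cell types, and the transcript rose although Klf4 had been reduced. The log2 fold change was 0.40 (standard error, SE, 0.067, limma adjusted p = 0.00658) in SMCs and 0.43 (SE 0.068, limma adjusted p = 0.00234) in PDGFR-β+ cells, or 31.5% and 34.5% above the Scr means. The effects in the cell types differed by -0.034 with a 95% interval from -0.24 to 0.17 (limma adjusted p = 0.808). Cdkn1a was the only one of the 10 genes that passed the threshold as higher in both cell types, as did 6.00% of all genes tested in both. Restricted to the numbered SMC libraries, its log2 fold change was 0.38 (limma adjusted p = 0.00638).

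The sequence before the start sites of Cdkn1a is shown because Cdkn1a is a known KLF4 target and rose in both cell types, and that of Cdkn2b because it fell in SMCs. The sequences are the 250 bases before each start in RefSeq (GRCm38.p6), which had entries for 7 of the 10 genes. Searched on both strands were CACCC and GGGCGG, the latter a GC box, and the p53 response element with at most 1 mismatch and no spacer. Matches are in capitals, and a match on the minus strand reads GGGTG or CCGCCC. The 2 starts of Cdkn1a lie 2790 bp apart, and gene-level TPM does not separate their transcripts. The upstream window lies at chr17:29090729-29090978 on the plus strand and overlaps an annotated exon of Cdkn1a-204 at its end. The downstream window, at chr17:29093519-29093768 on the plus strand, lies in an intron of Cdkn1a-202. The Cdkn2b window lies at chr4:89311033-89311282 on the minus strand and is written 5′ to 3′ along that strand.
Cdkn1a upstream start: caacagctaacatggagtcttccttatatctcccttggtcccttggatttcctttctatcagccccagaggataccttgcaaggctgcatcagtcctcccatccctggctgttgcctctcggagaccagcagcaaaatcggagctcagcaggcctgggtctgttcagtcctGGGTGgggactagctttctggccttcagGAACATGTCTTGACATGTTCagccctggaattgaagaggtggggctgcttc
Cdkn1a downstream start: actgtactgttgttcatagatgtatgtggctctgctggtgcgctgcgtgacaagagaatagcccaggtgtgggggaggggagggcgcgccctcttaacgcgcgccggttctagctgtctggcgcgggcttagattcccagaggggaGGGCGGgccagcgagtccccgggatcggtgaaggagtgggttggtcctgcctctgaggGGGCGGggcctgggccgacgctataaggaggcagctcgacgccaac
Cdkn2b start: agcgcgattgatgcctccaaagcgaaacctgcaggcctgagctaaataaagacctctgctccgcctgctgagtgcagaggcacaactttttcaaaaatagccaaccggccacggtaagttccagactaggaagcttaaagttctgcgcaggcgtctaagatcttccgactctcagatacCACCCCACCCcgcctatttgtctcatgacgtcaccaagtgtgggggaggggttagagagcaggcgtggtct
The upstream Cdkn1a window held CACCC on the minus strand and a p53 element from 51 to 32 bases before the start. The downstream window held 2 GC boxes and no CACCC. Cdkn2b held 2 adjacent CACCC runs, from 71 to 62 bases before its start. Over the 11 windows of the 7 genes, 9 held CACCC, 7 held GGGCGG and 1 the p53 element. Of all 32851 windows of this length, 52.0% held CACCC, 32.7% GGGCGG and 0.0761% the p53 element. A match describes letters and not a site that was bound.

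Cdkn1b (ENSMUSG00000003031.14) encodes p27, a Cip/Kip inhibitor that is high in resting cells and is removed by the ubiquitin ligase subunit SKP2. It lies on the plus strand of chromosome 6, between 134920401 and 134925513. In SMCs it measured 67.1, 50.8 and 49.2 TPM with Scr against 51.4, 43.0 and 43.9 TPM with siKlf4, which overlapped (log2 fold change -0.26, limma adjusted p = 0.192). It passed the threshold in SMCs (adjusted p = 0.0176) where a term for the unnumbered libraries was added. The Scr libraries of PDGFR-β+ cells measured 26.0, 33.5 and 30.4 TPM and the siKlf4 libraries 40.8, 37.3 and 37.0 TPM, without overlap. With a log2 fold change of 0.35 (SE 0.11, limma adjusted p = 0.0317) it passed the threshold. This call was lost without any library other than Scr replicate 2, with adjusted p values of 0.0864 and 0.0624 without Scr replicates 1 and 3 and of 0.0936, 0.0690 and 0.0632 without siKlf4 replicates 1, 2 and 3. It was also lost with median-ratio scaling (log2 fold change 0.24, adjusted p = 0.112), quantile normalization (adjusted p = 0.0876) and no filter on low values (adjusted p = 0.0618). The effects in the cell types differed by -0.61 (SE 0.18, limma adjusted p = 0.0225), and the adjusted p was 0.0533 and 0.0518 without PDGFR-β+ Scr replicate 1 and siKlf4 replicate 1, and 0.0541 and 0.0517 without SMC siKlf4 replicates 2 and 3.

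Cdkn1c (ENSMUSG00000037664.13) encodes p57, an imprinted Cip/Kip inhibitor expressed from the maternal allele. It lies on the minus strand of chromosome 7, between 143458339 and 143461050. In SMCs it measured 117, 94.8 and 74.3 TPM with Scr against 71.4, 44.8 and 47.3 TPM with siKlf4. In PDGFR-β+ cells it measured 2.13, 1.83 and 2.63 TPM with Scr against 8.12, 8.90 and 8.12 TPM with siKlf4. It was therefore lower in every siKlf4 library in SMCs and higher in every siKlf4 library in PDGFR-β+ cells, where it still stayed below every SMC library. The log2 fold change was -0.80 (SE 0.22, limma adjusted p = 0.0322) in SMCs and 1.56 (SE 0.13, limma adjusted p = 1.3e-04) in PDGFR-β+ cells, where the means differed 3.81-fold. The difference of -2.36 between the cell types (SE 0.27, limma adjusted p = 6.9e-05) was the largest in size of the 10 genes, close to 2.21 (SE 0.16) for Ccnd1. With median-ratio scaling this order turned, at 2.31 for Ccnd1 and -2.29 for Cdkn1c. The fall in SMCs missed the threshold in 4 of 6 fits with 1 library left out, where the log2 fold change lay from -1.01 to -0.65. Its adjusted p was 0.0780 without the unnumbered Scr library, 0.0849 without Scr replicate 2, 0.0999 without siKlf4 replicate 2 and 0.0983 without siKlf4 replicate 3, and 0.0137 in the numbered libraries alone. An annotated antisense transcript within the locus, Gm44732, averaged 2.14 TPM with Scr and 0.469 TPM with siKlf4 in SMCs (log2 fold change -1.17, limma adjusted p = 0.0358) and was listed at 0 in PDGFR-β+ cells. The library kit keeps strand, but the strand setting of the counting is not given in the sources used here, so reads of both genes may not be fully separated.

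Together the Cip/Kip genes summed to a mean of 708 TPM in Scr-treated and 833 TPM in siKlf4-treated SMCs. In PDGFR-β+ cells the sums were 695 and 938 TPM. Cdkn1a made up most of the family in all groups. Its share was 78.7% ± 4.28 (SD, n = 3) with Scr and 87.9% ± 2.41 (SD, n = 3) with siKlf4 in SMCs, where that of Cdkn1c went from 13.5% ± 2.95 to 6.55% ± 1.81. In PDGFR-β+ cells the share of Cdkn1a was 95.4% ± 0.695 with Scr and 95.02% ± 0.148 with siKlf4. The Cip/Kip transcripts of PDGFR-β+ cells were thus nearly all Cdkn1a under both treatments.

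Cdkn2a (ENSMUSG00000044303.6) encodes the INK4 inhibitor p16 and, from a first exon of its own and in another reading frame, p19ARF, which stabilises p53. The gene lies on the minus strand of chromosome 4, between 89274471 and 89294653, and its 2 starts in RefSeq are 12427 bp apart. Gene-level TPM does not separate the products. In SMCs it measured 160, 257 and 223 TPM with Scr against 129, 219 and 178 TPM with siKlf4. The groups overlapped, the unnumbered library being the lowest of each, and the log2 fold change was -0.29 (SE 0.23, limma adjusted p = 0.387). In PDGFR-β+ cells the Scr libraries measured 121, 130 and 107 TPM and the siKlf4 libraries 190, 168 and 180 TPM. They did not overlap, with a log2 fold change of 0.59 (SE 0.090, limma adjusted p = 0.00205) and a mean 50.2% above Scr. The effects in the cell types differed by -0.87 (SE 0.27, limma adjusted p = 0.0282). The adjusted p was 0.0629 without PDGFR-β+ Scr replicate 3, 0.0605 and 0.0523 without PDGFR-β+ siKlf4 replicates 1 and 3, 0.0649 and 0.0574 without SMC Scr replicates 2 and 3, and 0.0504 without the unnumbered SMC siKlf4 library.

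Cdkn2b (ENSMUSG00000073802.4), the neighbour of Cdkn2a on the minus strand of chromosome 4, between 89306299 and 89311039, encodes p15, an INK4 inhibitor that TGF-β is known to induce. In SMCs it measured 139, 133 and 117 TPM with Scr against 92.7, 86.4 and 88.4 TPM with siKlf4. Every siKlf4 library was lower than every Scr library. The log2 fold change was -0.53 (SE 0.081, limma adjusted p = 0.00456), which left 68.7% of the Scr mean, and it was -0.51 in the numbered libraries alone (limma adjusted p = 0.0125). In PDGFR-β+ cells the libraries overlapped, at 63.7, 61.8 and 61.9 TPM with Scr against 64.4, 62.3 and 57.5 TPM with siKlf4. The log2 fold change of -0.025 had a 95% interval from -0.19 to 0.14 (limma adjusted p = 0.803). The effect differed between the cell types by -0.51 (SE 0.10, limma adjusted p = 0.00322).

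Cdkn2c (ENSMUSG00000028551.14), on the minus strand of chromosome 4, between 109660876 and 109667189, encodes p18. It measured 45.4, 32.6 and 37.0 TPM with Scr against 37.0, 34.9 and 34.4 TPM with siKlf4 in SMCs, which overlapped (log2 fold change -0.099, limma adjusted p = 0.573). In PDGFR-β+ cells it measured 20.7, 19.3 and 19.5 TPM with Scr against 32.6, 26.3 and 29.3 TPM with siKlf4. Here every siKlf4 library was higher, with a log2 fold change of 0.54 (SE 0.097, limma adjusted p = 0.00388) and a mean 48.2% above Scr. The effects in the cell types differed by -0.64 (SE 0.16, limma adjusted p = 0.0100). Cdkn2d (ENSMUSG00000096472.2), on the minus strand of chromosome 9, between 21288410 and 21291407, encodes p19INK4D. Its values were 28.8, 25.3 and 32.0 TPM with Scr against 17.9, 23.7 and 24.0 TPM with siKlf4 in SMCs, without overlap, and 22.0, 15.5 and 20.1 TPM against 17.6, 14.2 and 13.6 TPM in PDGFR-β+ cells, with overlap. The log2 fold changes of -0.39 (limma adjusted p = 0.0788) and -0.32 (limma adjusted p = 0.133) did not pass the threshold. Without PDGFR-β+ Scr replicate 2, the lowest of its group, the value in PDGFR-β+ cells was -0.46 (limma adjusted p = 0.0350), and with quantile normalization it was -0.43 (limma adjusted p = 0.0491).

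The summed INK4 transcripts had means of 410 TPM with Scr and 322 TPM with siKlf4 in SMCs, and of 221 and 285 TPM in PDGFR-β+ cells. The siKlf4 libraries of PDGFR-β+ cells, from 271 to 305 TPM, were all above the Scr libraries, from 209 to 228 TPM. In SMCs they measured 374, 447 and 410 TPM with Scr against 277, 364 and 325 TPM with siKlf4, all Scr libraries above all siKlf4 libraries. Cdkn2a was the largest contributor to the family in all 4 groups, at 51.6% and 53.9% with Scr and siKlf4 in SMCs and 54.0% and 62.9% in PDGFR-β+ cells. The Cdkn2a part of these sums includes any transcripts of p19ARF, whose amount gene-level TPM does not give.

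Ccnd1 (ENSMUSG00000070348.5) encodes cyclin D1, the D-type cyclin that growth factor signalling through RAS and ERK is known to induce. It lies on the minus strand of chromosome 7, between 144929931 and 144939925. In SMCs it measured 256, 314 and 332 TPM with Scr against 380, 418 and 387 TPM with siKlf4. In PDGFR-β+ cells it measured 561, 566 and 548 TPM with Scr against 134, 180 and 164 TPM with siKlf4. Neither pair of groups overlapped, and the directions were opposite, with siKlf4 above Scr in SMCs and below it in PDGFR-β+ cells. In PDGFR-β+ cells its log2 fold change was -1.81 (SE 0.11, limma adjusted p = 2.9e-05), leaving 28.5% of the Scr mean. In SMCs the log2 fold change was 0.40 (SE 0.10, limma adjusted p = 0.0286). The effects in the cell types differed by 2.21 (SE 0.16, limma adjusted p = 4.7e-06). With 1 library left out, the log2 fold change in SMCs lay from 0.29 to 0.47, and 4 of 6 such fits missed the threshold. The adjusted p was 0.0578 without Scr replicate 2 and 0.0525 without the unnumbered siKlf4 library. It was 0.0966 without siKlf4 replicate 2 and 0.0735 without siKlf4 replicate 3. Restricted to the numbered SMC libraries, the log2 fold change of Ccnd1 was 0.32 (limma adjusted p = 0.0226). Lto1, named Oraov1 in the tables, overlaps Ccnd1 on the opposite strand and averaged 17.7 TPM in Scr-treated and 23.7 TPM in siKlf4-treated PDGFR-β+ cells (limma adjusted p = 0.0705). Ccnd1 and Cdkn1c were the 2 genes of the 10 that passed the threshold in both cell types in opposite directions, as did 4.24% of all genes tested in both.

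Ccnd2 (ENSMUSG00000000184.12) encodes cyclin D2 and lies on the minus strand of chromosome 6, between 127125162 and 127152193. In PDGFR-β+ cells it measured 825, 750 and 785 TPM with Scr against 593, 578 and 584 TPM with siKlf4. All siKlf4 libraries were lower, with a log2 fold change of -0.43 (SE 0.063, limma adjusted p = 0.00172) that left 74.4% of the Scr mean. In SMCs the Scr libraries, at 324, 339 and 339 TPM, and the siKlf4 libraries, at 424, 384 and 367 TPM, did not overlap either. The log2 fold change of 0.23 there missed the threshold (SE 0.072, limma adjusted p = 0.0527), and it passed under 4 of 10 other ways of processing, with the lowest adjusted p of 0.0192 when both cell types shared a fit. The effect differed between the cell types by 0.65 (SE 0.091, limma adjusted p = 3.1e-04). Ccnd3 (ENSMUSG00000034165.16), on the plus strand of chromosome 17, between 47505051 and 47599691, encodes cyclin D3 and had the lowest level of the family in all groups. It measured 64.5, 93.7 and 54.2 TPM with Scr against 82.0, 88.9 and 89.2 TPM with siKlf4 in SMCs, and 49.8, 58.4 and 46.0 TPM against 55.2, 58.3 and 42.7 TPM in PDGFR-β+ cells. Both pairs of groups overlapped, and the log2 fold changes of 0.32 (limma adjusted p = 0.225) and 0.013 (limma adjusted p = 0.948) did not pass. The highest Scr library in SMCs was replicate 2, and without it the value in SMCs was 0.54 (limma adjusted p = 0.0219).

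As a family, the D-type cyclins summed to 1436, 1374 and 1380 TPM in Scr-treated and 782, 816 and 791 TPM in siKlf4-treated PDGFR-β+ cells, so that the mean fell by 43.0%. In SMCs they summed to 645, 747 and 725 TPM with Scr against 886, 891 and 843 TPM with siKlf4, a mean 23.8% higher. The make-up moved as well in PDGFR-β+ cells, where the share of Ccnd1 was 40.0% ± 1.06 (SD, n = 3) with Scr and 20.0% ± 2.53 (SD, n = 3) with siKlf4. That of Ccnd2 was 56.3% ± 1.52 and 73.5% ± 2.49 in the same libraries. In SMCs the share of Ccnd1 was 42.5% ± 3.04 and 45.2% ± 2.11, with overlapping libraries. With Scr, the summed cyclins were 1396 TPM in PDGFR-β+ cells and 705 TPM in SMCs, whereas with siKlf4 they were 796 and 873.2 TPM.

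**Figure D3:**
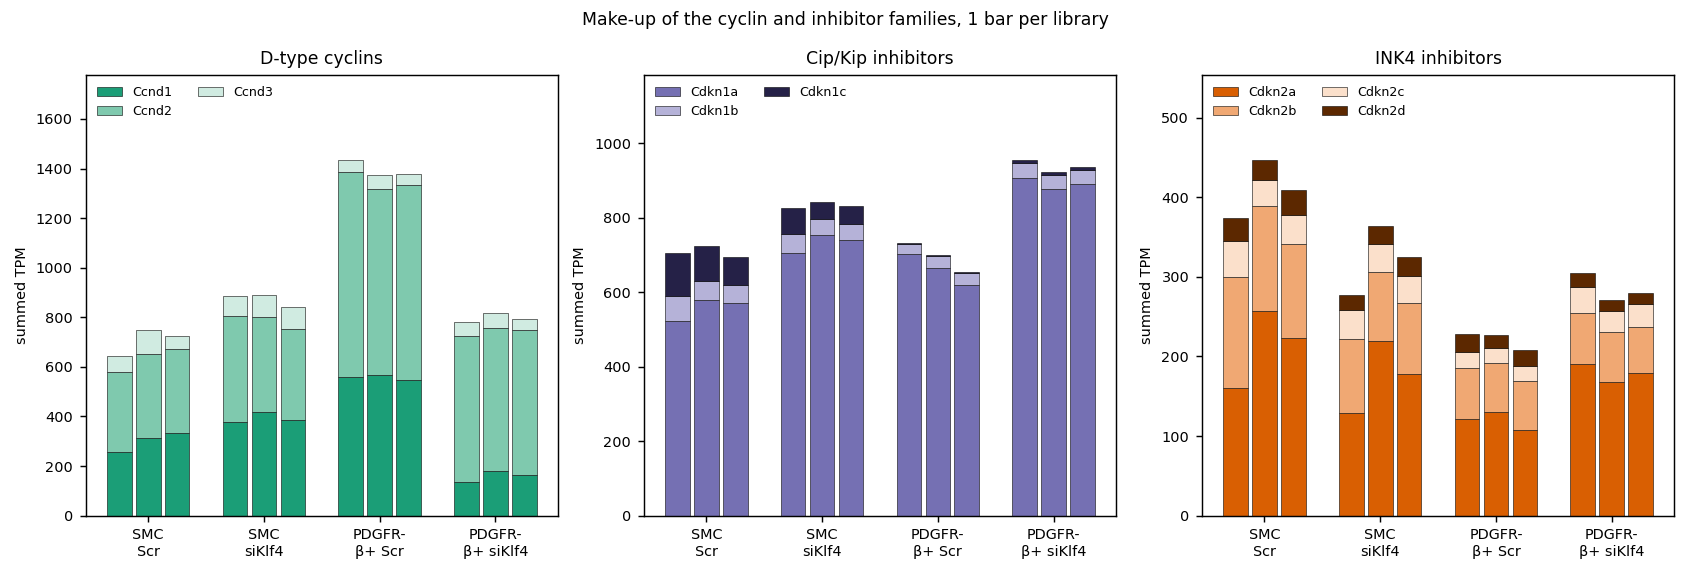
Summed TPM (linear axis from 0) of the D-type cyclins, the Cip/Kip inhibitors and the INK4 inhibitors, with 1 bar per library and colours for the genes. The bars of the D-type cyclins in PDGFR-β+ cells lie between 1374 and 1436 TPM with Scr and between 782 and 816 TPM with siKlf4, and the part that shrinks most is Ccnd1.

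The scaling of the libraries mattered for PDGFR-β+ cells. Median-ratio scaling moved the median log2 fold change of all genes there by -0.10, from 0.097, and 47.0% of the genes past the threshold were then higher instead of 62.3%. Under it the log2 fold changes were -1.92 for Ccnd1, -0.54 for Ccnd2, 0.32 for Cdkn1a, 1.47 for Cdkn1c, 0.47 for Cdkn2a and 0.43 for Cdkn2c, all still past the threshold. Cdkn1b was no longer past it, and Ccnd3, not called either way, went to -0.095.

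The proteins that work with these genes were followed in lists of other genes. Of 10 G1 kinases and E-type cyclins, 5 rose and 1 fell in SMCs, and 3 rose and 0 fell in PDGFR-β+ cells, with median log2 fold changes of 0.37 and 0.20, and 2 rose in SMCs without siKlf4 replicate 3. Over all genes tested the medians were 0.017 in SMCs and 0.097 in PDGFR-β+ cells, and the counts of every list below stand against 15.6% higher and 12.9% lower in SMCs and 25.3% higher and 15.3% lower in PDGFR-β+ cells. Cdk4, the partner of the D-type cyclins, rose from 240 to 319 TPM in SMCs (log2 fold change 0.41, limma adjusted p = 0.0301), and Cdk6, its close relative, from 40.2 to 49.5 TPM in PDGFR-β+ cells (0.29, limma adjusted p = 0.0136). Cdk2, the kinase that Cip/Kip proteins inhibit, rose in both, with log2 fold changes of 0.61 and 0.64. So did Cdc25a, a phosphatase that activates it, with 0.71 and 0.87. Ccne2, which encodes an E-type cyclin, had the largest change of the list in SMCs, from 3.13 to 9.46 TPM (1.34, limma adjusted p = 9.97e-04). Among these, Cdk4 in SMCs lost its call without Scr replicate 3 (adjusted p = 0.0711), siKlf4 replicate 2 (0.0865) or siKlf4 replicate 3 (0.0978), with no filter (0.0707) and with the replicate block (0.0595). Cdk2 in SMCs lost it without Scr replicate 2 (adjusted p = 0.0546) or siKlf4 replicate 3 (0.0577) and in the numbered libraries alone (0.0814). Cdk6 in PDGFR-β+ cells lost it without siKlf4 replicate 3 (adjusted p = 0.0529), with median-ratio scaling (0.0762), with quantile normalization (0.0578) and in the joint fit of both cell types (0.0983).

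Among pocket proteins and E2F factors, 17 of 18 could be tested, of which 5 rose and 1 fell in SMCs and 4 rose and 2 fell in PDGFR-β+ cells, with medians of 0.25 and 0.049. Rb1, the substrate of the cyclin D kinases, was at 28.9 TPM with Scr and 14.4 TPM with siKlf4 in PDGFR-β+ cells, a log2 fold change of -0.95 (SE 0.099, limma adjusted p = 3.5e-04). Its relative Rbl1 rose there by 0.52, and E2f5, a repressive E2F, by 0.81. Rbl1 also rose in SMCs, by 0.47 (limma adjusted p = 0.0217), while Rb1 and E2f5 did not pass there (0.20 and 0.27). In SMCs the repressive factors E2f7 and E2f8 had log2 fold changes of 0.90 (limma adjusted p = 0.0317) and 0.58 (limma adjusted p = 0.0438), from levels of 2.11 and 1.64 TPM with Scr. E2f7 lost its call without either unnumbered library (adjusted p = 0.0691 for Scr and 0.0776 for siKlf4), Scr replicate 3 (0.0797) or siKlf4 replicate 2 (0.102), in the numbered libraries alone (0.128) and with the block (0.0534). E2f8 lost it without any library other than siKlf4 replicate 3 (adjusted p from 0.0560 to 0.126), in the numbered libraries alone (0.166) and with the block (0.232), and both lost it with no filter (0.0882 and 0.106). Lin9 and Lin52, subunits of the complex that carries pocket proteins to cell cycle promoters, differed in SMCs, where Lin9 rose by 0.89 and Lin52 had a log2 fold change of -0.63, while Lin52 rose by 0.50 in PDGFR-β+ cells. The 5 that rose in SMCs became 3 without Scr replicate 2 and 2 without Scr replicate 3, the unnumbered siKlf4 library or siKlf4 replicate 2.

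Proteins that degrade D-type cyclins or CDK inhibitors formed a list of 17 genes, of which 5 rose and 3 fell in SMCs and 2 rose and 3 fell in PDGFR-β+ cells, with medians of 0.017 and 0.14. The counts in PDGFR-β+ cells were not above the shares of all genes, 25.3% higher and 15.3% lower, by more than 1 gene. Skp2, which marks p27 for degradation, rose from 5.66 to 10.9 TPM in SMCs (log2 fold change 0.84, limma adjusted p = 0.00252). Its cofactor Cks1b rose there by 0.55 and had a log2 fold change of -0.66 in PDGFR-β+ cells. Dtl, the receptor of the CUL4 ligase that targets p21, rose by 0.59 in SMCs and had a log2 fold change of -0.47 in PDGFR-β+ cells. Fbxo31, a cyclin D1 ligase subunit, was at -0.52 in SMCs, and the scaffolds Cul4a and Cul4b were at -0.39 and 0.23 in PDGFR-β+ cells, all past the threshold. In SMCs Cks1b lost its call without Scr replicate 2 (adjusted p = 0.0635), the unnumbered siKlf4 library (0.0548) or siKlf4 replicate 3 (0.0604), in the numbered libraries alone (0.0859) and with the replicate block (0.0506), and Dtl lost it with the block (0.0737). In PDGFR-β+ cells Dtl lost its call without Scr replicate 1 (adjusted p = 0.0549), Scr replicate 2 (0.0576), siKlf4 replicate 1 (0.0563) or siKlf4 replicate 3 (0.0669) and with no filter (0.0545). Cul4a lost it there without Scr replicate 1 (adjusted p = 0.0916) or Scr replicate 2 (0.0708), with no filter (0.0702) and in the joint fit (0.165), and Cul4b without any library other than Scr replicate 1 (0.0555 to 0.104), with median-ratio scaling (0.116) and without a trend (0.0546). The 5 that rose in SMCs became 2 or 3 without any library other than the unnumbered Scr library, and the 2 that rose in PDGFR-β+ cells became 0 or 1 without any library.

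Of the regulators known to act on transcription of these genes, 24 of 25 could be tested. In SMCs 6 rose and 4 fell, and in PDGFR-β+ cells 12 rose and 2 fell, with medians of 0.11 and 0.32. Cbx7, a Polycomb protein that represses Cdkn2a, fell from 7.56 to 3.09 TPM in SMCs (log2 fold change -1.07, limma adjusted p = 0.0146) and rose from 2.09 to 4.51 TPM in PDGFR-β+ cells (0.80, limma adjusted p = 0.0169). Rnf2, another Polycomb protein, rose by 0.75 in PDGFR-β+ cells. Ets1, an activator of Cdkn2a, rose there from 25.5 to 56.8 TPM (1.17, limma adjusted p = 0.0373). Zfp36l1, an RNA-binding protein that promotes decay of its target transcripts, rose there by 1.08. Ets1 rose in SMCs too, by 0.42 (limma adjusted p = 0.0299), whereas Zfp36l1 was at -0.39 there (limma adjusted p = 0.0324). In SMCs Foxo1, an activator of Cdkn1b, had a log2 fold change of -0.57, and Id1, a repressor of Cdkn2a, of 0.42. Kdm6b, a demethylase that acts against Polycomb marks, rose by 0.52 in SMCs and by 0.46 in PDGFR-β+ cells (limma adjusted p = 0.0025). Id1 lost its call without Scr replicate 2 (adjusted p = 0.109), Scr replicate 3 (0.113), the unnumbered siKlf4 library (0.0804) or siKlf4 replicate 2 (0.0866), with no filter (0.0877), quantile normalization (0.0525) or no trend (0.0587) and in the joint fit (0.0596). In PDGFR-β+ cells Ets1 lost its call without Scr replicate 3 (adjusted p = 0.0628) or siKlf4 replicate 1 (0.0593), 2 (0.110) or 3 (0.0515). The same call was lost with no filter (0.0994), median-ratio scaling (0.0517) or no trend (0.0509). Cbx7 lost it in PDGFR-β+ cells without Scr replicate 3 (adjusted p = 0.0542) and with no filter (0.0560), and in SMCs with the replicate block (0.0641). The 6 that rose in SMCs became 2 or 3 without any library other than the unnumbered Scr library, whereas the 12 in PDGFR-β+ cells stayed within 1.5 times of that count.

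Genes that p53 is known to induce, other than Cdkn1a, made up a list of 30. In SMCs 10 rose and 4 fell, with a median of 0.21, and in PDGFR-β+ cells 16 rose and 3 fell, with a median of 0.36. Btg2, an antiproliferative gene, rose in both, from 74.4 to 149 TPM in SMCs (log2 fold change 0.99, limma adjusted p = 0.00201) and from 40.7 to 161 TPM in PDGFR-β+ cells (1.96, limma adjusted p = 8.9e-06). In SMCs the kinase genes Plk2 and Plk3 rose by 1.26 and 0.92, and Sesn1, a stress-response gene, was at -1.08. Plk2 and Plk3 also rose in PDGFR-β+ cells, by 0.63 and 0.58 (limma adjusted p = 6.5e-04 and 0.0212). Plk3 lost its call in SMCs without Scr replicate 2 (adjusted p = 0.0534), siKlf4 replicate 2 (0.0606) or siKlf4 replicate 3 (0.0587). In PDGFR-β+ cells Tap1, a peptide transporter of antigen presentation that interferons also induce, rose by 2.23. Bbc3, which encodes the proapoptotic protein PUMA, rose there by 1.22, and Ei24 by 1.21. Tap1 and Ei24 each rose by 0.43 in SMCs too (limma adjusted p = 0.0489 and 0.00302), where Bbc3 was at -0.28 (limma adjusted p = 0.318). The 10 that rose in SMCs became 5 without Scr replicate 2 or siKlf4 replicate 2 and 6 without siKlf4 replicate 3.

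The genes of later cell cycle phases were followed last. Of 20 S phase genes that E2F factors activate, 19 rose and 0 fell in SMCs (median 0.68), and 5 rose and 1 fell in PDGFR-β+ cells (median 0.19). The 5 are a share close to the 25.3% of all genes that were higher in PDGFR-β+ cells, and 8 rose without Scr replicate 2. In SMCs Mcm5, a subunit of the replicative helicase, rose from 6.97 to 21.7 TPM (log2 fold change 1.52, limma adjusted p = 9.97e-04), with Uhrf1, Tk1 and Chaf1b at 1.14, 1.06 and 1.05. In PDGFR-β+ cells the helicase genes Mcm4, Mcm6 and Mcm2 rose by 1.11, 1.02 and 0.61, whereas Rrm2, a ribonucleotide reductase subunit, was at -0.84. All of these rose in SMCs, with log2 fold changes of 0.67, 0.69 and 0.75 for Mcm4, Mcm6 and Mcm2 and 0.62 for Rrm2. Of 20 G2/M phase genes, 18 rose and 0 fell in SMCs (median 0.90), and 0 rose and 8 fell in PDGFR-β+ cells (median -0.42). The 8 that fell became 5 without Scr replicate 1 or siKlf4 replicate 3 and 14 without Scr replicate 3 or with median-ratio scaling. The mitotic genes Plk1, Birc5 and Bub1 rose by 1.28, 1.27 and 1.15 in SMCs, and Kif20a, Cenpf and Ccna2 were at -0.69, -0.61 and -0.60 in PDGFR-β+ cells. Mki67, which marks cycling cells, rose from 11.9 to 28.5 TPM in SMCs (1.19, limma adjusted p = 9.3e-04) and fell from 45.8 to 29.2 TPM in PDGFR-β+ cells (-0.62, limma adjusted p = 0.0120). Cdkn1a was thus higher in both cell types while Mki67 moved in opposite directions, and Ccnd1 moved in the direction of Mki67 in each.

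**Figure D4:**
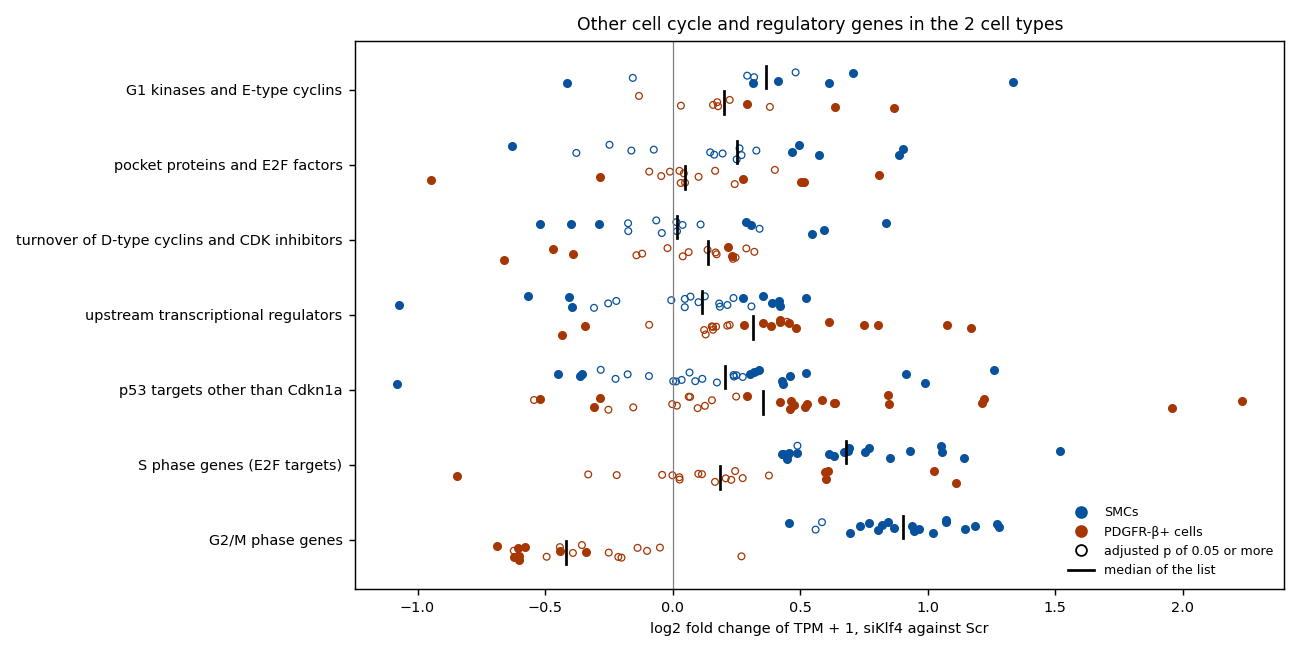
Log2 fold change of TPM + 1 (siKlf4 against Scr) for the other gene lists, in SMCs (blue) and PDGFR-β+ cells (brown). Each point is a gene, open points have an adjusted p of 0.05 or more, and black bars mark the median. The medians of the G2/M phase genes lie at 0.90 in SMCs and -0.42 in PDGFR-β+ cells.

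The genes whose pattern was most like that of Cdkn1a or Ccnd1 were sought by the Pearson correlation over the 12 libraries after the mean of each cell type had been subtracted, among 9865 genes. The libraries share treatments, so the correlations are descriptions. For Cdkn1a they were Hspbp1, an HSP70 cochaperone (r = 0.992), Sept4, a septin (r = 0.988), and Cdr2 (r = 0.987). Hspbp1 went from 23.0 to 30.8 TPM in SMCs and from 21.8 to 29.0 TPM in PDGFR-β+ cells. For Ccnd1 they were Srpr, a subunit of the signal recognition particle receptor (r = 0.989), Inafm2 (r = 0.980) and Atic, an enzyme of purine synthesis (r = 0.979). Srpr went from 146 to 176 TPM in SMCs and from 152 to 57.1 TPM in PDGFR-β+ cells, and Atic from 62.2 to 81.7 TPM and from 113 to 41.3 TPM.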

How the data were processed

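The authors aligned reads of stranded mRNA libraries to mm10 with HISAT2 and a GENCODE annotation and quantified genes by StringTie and ballgown. They deposited TPM values, 1 table per cell type. The versions of these tools, the GENCODE release and the strand setting of the counting are not given in the sources used here, and the study's own test, DESeq2 on counts, was not used. TPM keeps no depth, so precision rests on the 3 libraries per group.

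Values were analysed as log2(TPM + 1), leaving out genes that averaged under 1 TPM in the cell type, with limma 3.58.1 in R 4.3.3 (lmFit, eBayes with a mean-variance trend), two-sided, with Benjamini-Hochberg adjustment over all genes tested. The difference between cell types was the interaction term over 12 libraries. Exact permutation tests used scipy 1.17.1. The fits were tested on simulated data with 200 changed genes for each comparison. They recovered 129 in SMCs, 153 in PDGFR-β+ cells and 128 for the difference, with 5, 7 and 7 false calls. Positions are from GENCODE M21, in which 52489 of 52636 identifiers matched, 49121 with the same version. Promoters are from RefSeq.

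The 10 genes and all lists were chosen with earlier results of these data known. The text names the 10 genes, Klf4, from each other list up to 4 genes per cell type with the largest change past the threshold and no overlap of the groups, and the 3 genes most like Cdkn1a and Ccnd1, clone and model names left out. Marker genes and genes overlapping the 10 are named beside the values they touch. Alternatives were a pseudocount of 0.1, no filter, a minimum of 5 TPM, median-ratio scaling, quantile normalization, no trend, joint or separate fits, a replicate block, a term for the unnumbered SMC libraries, numbered SMC libraries only, and leaving out each library.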

Additional observations from a re-analysis of the deposited data

Results flagged for a closer look

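The effect of siKlf4 differed between SMCs and PDGFR-β+ cells for 7 of the 10 genes and for Klf4 itself, by the limma interaction term with Benjamini-Hochberg adjustment. As the log2 fold change in SMCs minus that in PDGFR-β+ cells, the differences were 2.21 for Ccnd1 (adjusted p = 4.7e-06) and 0.65 for Ccnd2 (adjusted p = 3.1e-04). They were -2.36 for Cdkn1c (adjusted p = 6.9e-05), -0.87 for Cdkn2a (adjusted p = 0.0282), -0.64 for Cdkn2c (adjusted p = 0.0100), -0.61 for Cdkn1b (adjusted p = 0.0225) and -0.51 for Cdkn2b (adjusted p = 0.00322). For Klf4 the difference was 1.19 (adjusted p = 6.9e-04).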

How the results depend on the processing

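Under all alternatives run, Cdkn1a and Cdkn2b in SMCs and Ccnd1, Ccnd2, Cdkn1a, Cdkn1c, Cdkn2a and Cdkn2c in PDGFR-β+ cells kept their direction and stayed past the threshold. Without a filter on low values, which raises the number of genes tested, 2 of the 10 genes passed in SMCs, where Ccnd1 (adjusted p = 0.0684) and Cdkn1c (adjusted p = 0.0812) were lost. With 1 library left out, the genes of the 10 past the threshold numbered from 2 to 4 in SMCs, from 6 to 8 in PDGFR-β+ cells and from 5 to 7 for the difference, and over all genes from 1157 to 2037 were higher and from 1044 to 1578 lower in SMCs, from 2573 to 3311 higher and from 1561 to 1987 lower in PDGFR-β+ cells, and from 1592 to 1957 higher and from 1972 to 2344 lower for the difference. In SMCs they were 1540 higher and 1390 lower without Scr replicate 3, 1382 and 1157 without Scr replicate 2, 1157 and 1059 without siKlf4 replicate 2, and 1298 and 1044 without siKlf4 replicate 3. Median-ratio scaling turned the split of the difference from 43.9% to 56.7% higher.

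The values that changed sign were all of genes not past the threshold, before or after, and the cause was not tested. Ccnd3 in PDGFR-β+ cells was -0.095 with median-ratio scaling, -0.071 with quantile normalization, and -0.0057, -0.062, -0.035 and -0.073 without Scr replicate 1, Scr replicate 3, siKlf4 replicate 1 and siKlf4 replicate 2, up to 0.15 without siKlf4 replicate 3. Cdkn2b in PDGFR-β+ cells lay from -0.060 to 0.020, the latter without siKlf4 replicate 3, with 1 library left out, and Cdkn2c in SMCs was 0.027 without the unnumbered Scr library. The difference of Cdkn1a was 0.064 with median-ratio scaling and, with 1 library left out, -0.077 without PDGFR-β+ Scr replicate 1 and 0.013 without PDGFR-β+ Scr replicate 3. That of Cdkn2d was 0.024 with median-ratio scaling, 0.027 with quantile normalization, 0.068 with numbered SMC libraries only, and 0.070, 0.038, 0.010 and 0.063 without PDGFR-β+ Scr replicate 2, PDGFR-β+ siKlf4 replicate 1, SMC Scr replicate 3 and the unnumbered SMC siKlf4 library, down to -0.17 without PDGFR-β+ Scr replicate 1. For the genes named from the other lists, values under alternatives were followed in the cell type that led to their naming. Of these, 753 stayed on their side of the threshold and 70 lost it, given beside each gene. Values of these genes in the other cell type are given without alternatives.

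Replicate numbers were not taken to pair the libraries. Deviations of same-numbered Scr and siKlf4 libraries correlated at 0.073, -0.016 and 0.0043 in PDGFR-β+ cells. Not every library there correlated best with its own number. In the numbered SMC libraries the value was 0.107. With only replicates 2 and 3 there, other pairs can only give its mirror, -0.107, so these values cannot decide on pairing. With a replicate block, 3486 genes were higher and 2155 lower in PDGFR-β+ cells, 1500 and 1353 in the numbered SMC libraries, and 1767 and 2115 for the difference, where that of Cdkn2d was 0.068. In the block fit 6 of the 10 genes passed in PDGFR-β+ cells, without Cdkn1b (adjusted p = 0.0568), 5 in SMCs, with Cdkn2a added (adjusted p = 0.0446), and 7 for the difference.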
